A study of Mus musculus with 6 samples.

Results

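The transcriptome described here is that of TM3 cells kept in the vehicle dimethyl sulfoxide (DMSO), described by absolute expression. The vehicle libraries are 3 of the 6 samples of the series, and every gene that the deposited tables class as protein-coding was taken, which gave 22046 of 54532 genes. TM3 is an established line derived from Leydig cells of the immature mouse testis. The cells grew in DMEM with 10% fetal bovine serum and received 0.1‰ DMSO for 48 h, and poly(A) RNA was sequenced from both fragment ends. The other 3 samples of the series received the kinase inhibitor pyrotinib and were not used. TM3 is 1 line, and the labels do not say whether the 3 replicates are separate cultures, so the spread between them may be technical. In RNA from a whole culture, fewer cells of a type and less RNA per cell cannot be told apart.

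Leydig cells lie between the seminiferous tubules of the testis and make testosterone. Luteinizing hormone acts on its receptor Lhcgr, Star carries cholesterol into the mitochondrion, Cyp11a1 cuts its side chain, and the Hsd3b enzymes, Cyp17a1 and Hsd17b3 complete the synthesis. Their precursors are mesenchymal cells of the interstitium that carry Pdgfra and little of this machinery, and the adult cells also secrete the hormone Insl3.

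The libraries held 15005737, 16171030 and 16113180 counted reads for DMSO replicates 1, 2 and 3. Protein-coding genes took 96.9%, 96.5% and 96.7% of them. Levels are given as deposited FPKM, reads scaled to gene length and library size, so that genes of different length can be compared. A gene is called expressed at 1 FPKM or more in all 3 libraries, near silent at a mean under 0.1 FPKM, and low in between. The limit that a count of 0 allows, 3 counts, was 0.200, 0.186 and 0.186 CPM (counts scaled to a common library size), and it covers counting error only.

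By this rule 10102 protein-coding genes, 45.8%, were expressed, 2342 (10.6%) were low and 9602 (43.6%) were near silent. No read was counted in any vehicle library for 6937 genes, 31.5% of the total. The single libraries had 10364, 10301 and 10336 genes at 1 FPKM or more, and 235 genes reached that level in exactly 1 library and 230 in exactly 2. The expressed genes had a median of 8.55 FPKM. A mean of at least 10 FPKM was found for 4480 genes, of at least 100 for 301 and of at least 1000 for 15.

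Among those 15 genes were mitochondrially encoded subunits of the respiratory chain, genes of the translation apparatus, and genes of the matrix and cytoskeleton, beside Fth1, Bsg, Hsp90ab1 and C3. The mitochondrial oxidase subunit mt-Co1 was first, with 6705, 6826 and 6478 FPKM in replicates 1, 2 and 3. The elongation factor Eef1a1 followed with 5555, 6385 and 5719 FPKM, and its 3 values did not overlap those of mt-Co1. Fibronectin, Fn1 (chr1:71585520-71653200, minus strand), the adhesive glycoprotein of connective tissue, came next with 3010, 3370 and 3062 FPKM. These 3 genes kept their order in every library. The ferritin heavy chain Fth1, which stores iron, averaged 2786 ± 184 FPKM, the elongation factor Eef2 2570 ± 223 and the ribosomal stalk protein Rplp1 2405 ± 213 (SD, n = 3 each). The ranges of Fth1 and Eef2 overlapped, as did those of Eef2 and Rplp1 and of Rplp1 and mt-Nd1, so their order does not exceed the spread.

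The remaining 9 genes ran from 2104 ± 166 FPKM for mt-Nd1, a subunit of complex I, to 1018 ± 82.3 for the complement protein C3 (SD, n = 3). Between them stood Bsg, a membrane chaperone of lactate transporters, at 1702 ± 146 FPKM and mt-Cytb of complex III at 1676 ± 142. The ribosomal protein Rplp0 had 1641 ± 171 FPKM and the type I collagen chain Col1a1 1400 ± 25.9. The chaperone Hsp90ab1 had 1297 ± 78.0 FPKM, mt-Nd2 1198 ± 132, and the intermediate filament protein vimentin, Vim, 1054 ± 67.1 (SD, n = 3 each). In the 3 complex I and III genes replicate 2 was the lowest library, while it was the highest for each of the other 12.

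**Figure D1:**
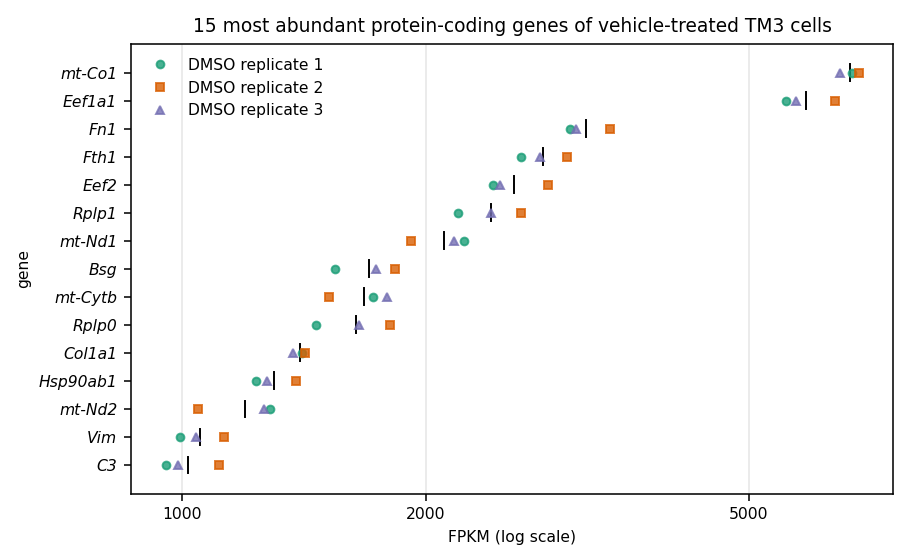
FPKM (log scale) of the 15 most abundant protein-coding genes in each vehicle library, with a symbol per replicate and a black bar at the mean of 3. Only mt-Co1, Eef1a1 and Fn1 stand clear of the gene below them among the upper 5, and most neighbours further down overlap.

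The RNA pool was not dominated by a few genes. Fn1 took 3.65 ± 0.158% of all protein-coding reads, the 10 genes with the most reads 10.0 ± 0.354%, the 100 with the most 24.0 ± 0.660% and the 1000 with the most 54.7 ± 0.725% (SD, n = 3). The 83 cytosolic ribosomal protein genes held 4.12 ± 0.358% of reads but 10.1 ± 0.745% of summed FPKM, since they are short. The 44 collagen chain genes did the reverse, with 2.52 ± 0.0333% of reads and 1.39 ± 0.0338% of FPKM. The 5 elongation factor genes held 2.50 ± 0.153% of reads.

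The 13 mitochondrially encoded mRNAs together made 1.87 ± 0.0873% of reads and 5.78 ± 0.411% of FPKM, but they were far from equal. Against 6669 ± 177 FPKM for mt-Co1, the sister subunits mt-Co2 and mt-Co3 had 163 ± 15.4 and 59.7 ± 8.31 FPKM, and mt-Atp6 had 94.0 ± 13.5. The complex I genes mt-Nd3 and mt-Nd4l had 13.2 ± 2.39 and 15.9 ± 3.58 FPKM, while mt-Nd4 had 788 ± 47.7 (SD, n = 3 each). For mt-Atp8 only 3 reads were counted in all. Nuclear copies of mitochondrial DNA exist in the mouse genome, and the sources used here do not say how reads that match several places were counted. These genes were chosen after their values were seen.

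Of 20 genes of steroid hormone synthesis, 9 were expressed (45.0%, beside 45.8% of all protein-coding genes), 4 were low and 7 near silent, 3 of these without a read. The expressed members were mainly transport proteins and the redox partners of P450 enzymes, and no P450 enzyme was among them. Tspo, an outer mitochondrial membrane protein linked to cholesterol transport, was highest with 71.6, 82.8 and 77.1 FPKM in replicates 1, 2 and 3. Por, the reductase that feeds electrons to microsomal P450 enzymes, had 56.9, 61.9 and 59.5 FPKM. The 3 values of Por lay below all 3 of Tspo.

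The mitochondrial electron carriers were both present. Fdxr, the reductase, had 20.1, 23.5 and 21.5 FPKM, and its partner ferredoxin, Fdx1, had 5.13, 5.79 and 5.20. The lipoprotein receptor Scarb1 had 19.6, 23.7 and 20.2 FPKM and overlapped Fdxr. Cyb5a, a cytochrome b5 that aids Cyp17a1, averaged 19.2 ± 1.86 FPKM, and the Tspo-binding protein Acbd3 12.4 ± 0.823. Stard4, a soluble sterol carrier, averaged 9.19 ± 0.814 FPKM and the steroid-converting reductase Akr1c14 4.79 ± 0.328 (SD, n = 3 each).

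The genes that commit cholesterol to steroid were at or close to 0. Star (chr8:25806555-25815982, plus strand) had 38, 30 and 38 reads, which made 0.631, 0.480 and 0.592 FPKM, a low but repeatable level. Cyp11a1 (chr9:58006411-58027023, plus strand) had 5, 3 and 3 reads, a mean of 0.051 ± 0.018 FPKM (SD, n = 3). Cyp17a1 had a single read in each library, Cyp21a1 had 2 reads in all and the aromatase Cyp19a1 had 1. No read was counted for Hsd3b1, Hsd3b6 or Hsd17b3 in any library. For Hsd3b1, 3 reads over the group would have been 0.0356 FPKM, for Hsd3b6 0.0366 and for Hsd17b3 0.0475. A count of 0 leaves levels up to these possible.

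The remaining members were also weak. Srd5a1, which reduces testosterone to dihydrotestosterone, had 0.775, 0.588 and 0.727 FPKM from 92 reads, and its locus overlaps Nsun2 on the opposite strand, which had 5958 reads. Cyp11b1, an enzyme of corticosteroid synthesis, had 0.410, 0.208 and 0.223 FPKM. Hsd11b1, which reactivates glucocorticoids, had 23 reads and 0.119 ± 0.0582 FPKM (SD, n = 3), and it overlaps Lamb3 on the opposite strand, with 72 reads. The sources used here do not say whether the counts separate strands.

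Of 24 genes that mark Leydig cells or their precursors, 12 were expressed, beside 45.8% of all protein-coding genes, 1 was low and 11 were near silent, 4 of them with no read. Genes known from precursor and gonadal stromal cells led the list. Pdgfra, the receptor for platelet-derived growth factor that marks Leydig progenitors, had 147, 121 and 148 FPKM, with replicate 2 the lowest. Gata6 and Gata4, zinc finger factors of gonadal somatic cells, had 44.5 ± 3.93 and 8.78 ± 0.594 FPKM, and all 3 values of Gata6 lay above all 3 of Gata4. Wt1, a factor of the early gonad and of Sertoli cells, had 19.0 ± 0.338 FPKM (SD, n = 3 each).

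Several precursor markers of the interstitium were likewise measured, while the precursor factors Tcf21 and Lhx9 were near silent. The adhesion molecule Vcam1 had 25.8, 25.5 and 28.1 FPKM and the matricellular protein Thbs2 30.4, 29.2 and 29.6. The orphan nuclear receptor Nr2f2 (COUP-TFII), a factor of Leydig stem and progenitor cells, averaged 7.76 ± 0.355 FPKM, and its relative Nr2f1 1.72 ± 0.213. Nr4a1, an immediate early nuclear receptor, averaged 9.54 ± 1.01 FPKM. Ptch1, the receptor for Hedgehog ligands, averaged 5.75 ± 0.358 FPKM (SD, n = 3 each), and its target Gli1 lay on the threshold with 1.08, 1.15 and 0.923.

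Genes of the differentiated cell, and some precursor factors, were at or near 0 reads. Lhcgr (chr17:88741549-88791976, minus strand), the receptor for luteinizing hormone, had 0 reads in all 3 libraries, against a limit of 0.0259 FPKM for 3 reads over the group. Nr5a1 (chr2:38692656-38714542, minus strand), encoding the factor SF-1 that drives steroidogenic genes, had 0, 0 and 3 reads. Nr0b1 (DAX-1) and Ptgds had none. The precursor factors Tcf21 and Lhx9 had 2 and 4 reads, and Ren1, Bhmt and the prolactin receptor Prlr had 1 each.

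The hormone genes on the list stood between these groups. Inha, the inhibin alpha subunit, had 3.06, 4.69 and 4.39 FPKM. Insl3 (chr8:71689214-71690575, plus strand) had 25, 52 and 25 reads, or 2.74, 5.50 and 2.57 FPKM, with replicate 2 about as high as the other two together. Insl3 lies within the span of Jak3 (chr8:71676296-71690575) on the same strand, and Jak3 had 399, 447 and 380 reads, so reads of both genes may not be separable and the Insl3 level is uncertain.

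Set against the label, the defining markers were therefore mostly at or near 0 reads. Of the 9 markers of steroid-making Leydig cells, Hsd3b1, Hsd3b6, Hsd17b3 and Lhcgr were at 0, Cyp11a1, Cyp17a1 and Nr5a1 had 11, 3 and 3 reads, Star was at 0.568 ± 0.0784 FPKM (SD, n = 3), and Insl3 averaged 3.60 ± 1.64 FPKM, with the overlap with Jak3 unresolved. The cells are called vehicle-treated TM3 cells throughout for that reason.

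**Figure D2:**
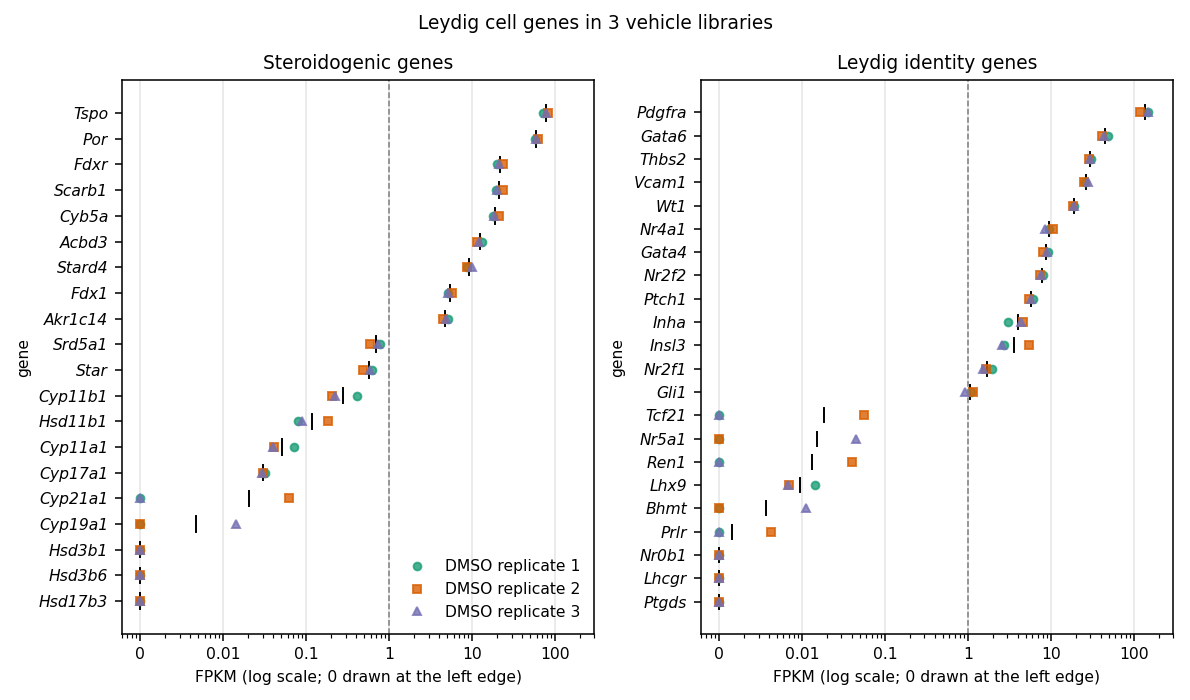
FPKM (log scale, with 0 drawn at the left edge) of the steroidogenic list (left) and the Leydig identity list (right), with a symbol per vehicle library, a black bar at the mean and a dashed line at 1 FPKM. Tspo, Scarb1, Por, Fdxr, Pdgfra, Gata6, Thbs2 and Vcam1 lie right of the line. The transport gene Star and the precursor factors Tcf21 and Lhx9 lie left of it, and Gli1 straddles it. Hsd3b1, Hsd3b6, Hsd17b3, Lhcgr, Nr0b1 and Ptgds lie at 0 in all 3 libraries.

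For reference, the DNA in front of 1 strongly expressed secreted factor, Igfbp4, and of 2 of the silent Leydig genes is shown as the 250 bases before the start annotated by RefSeq (build GRCm38.p6), read 5′ to 3′ on the gene's strand, with each CG dinucleotide in capitals. The windows are chr11:99040994-99041243 (plus strand), chr17:88792015-88792264 (minus strand) and chr3:98859795-98860044 (minus strand).
Igfbp4: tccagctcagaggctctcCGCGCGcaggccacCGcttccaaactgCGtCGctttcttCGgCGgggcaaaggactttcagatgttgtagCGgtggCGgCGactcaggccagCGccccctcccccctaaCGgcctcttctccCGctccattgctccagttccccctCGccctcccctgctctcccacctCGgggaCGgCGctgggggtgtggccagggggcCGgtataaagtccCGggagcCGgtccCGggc
Lhcgr: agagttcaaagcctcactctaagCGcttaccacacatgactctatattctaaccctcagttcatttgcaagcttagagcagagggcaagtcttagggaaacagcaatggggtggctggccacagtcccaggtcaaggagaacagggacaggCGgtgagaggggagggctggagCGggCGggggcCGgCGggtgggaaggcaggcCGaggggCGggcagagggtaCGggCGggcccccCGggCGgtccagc
Hsd3b1: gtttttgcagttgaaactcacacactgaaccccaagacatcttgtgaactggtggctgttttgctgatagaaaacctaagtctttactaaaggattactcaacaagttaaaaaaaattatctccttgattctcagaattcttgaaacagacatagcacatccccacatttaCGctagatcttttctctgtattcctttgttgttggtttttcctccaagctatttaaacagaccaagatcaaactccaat
The Igfbp4 window holds 22 CG dinucleotides and the letters TATAAA, which occur on either strand in 12.1% of the 16817 windows of this length that could be matched to protein-coding genes. The Lhcgr window holds 12 and the letters GGGCGG, present on either strand in 44.2% of windows, and Hsd3b1 holds 1. The observed to expected CG ratio was 0.748 for Igfbp4, 0.507 for Lhcgr and 0.128 for Hsd3b1, beside a median of 0.561 over all windows. No comparison of expression classes by promoter was made, because a window was matched for 76.3% of protein-coding genes and for 27 of the 44 Leydig genes, under the 80% required.

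Markers of connective tissue cells were the most complete lineage list. Of 20 fibroblast and mesenchyme genes 18 were expressed (90.0%, beside 45.8%), and the list summed to 7284 ± 288 FPKM (SD, n = 3). After Fn1, Col1a1 and Vim came Sparc, a collagen-binding matrix protein, with 499, 543 and 515 FPKM. Col1a2, the second chain of type I collagen, had 336, 333 and 325 FPKM, and Col3a1 of type III collagen 278, 278 and 273. Pdgfra and Tcf21 are also on the Leydig identity list. The members near silent were Tcf21 and Thy1, a surface glycoprotein of many fibroblasts, with 2 reads each. The mesenchymal factors Twist1 and Prrx1 had 23.1 and 13.4 FPKM, and the receptor Pdgfrb had 41.7.

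Muscle markers were mixed. Of 10 peritubular myoid and smooth muscle genes 4 were expressed: smooth muscle actin Acta2 with 43.5, 43.1 and 38.7 FPKM, the tropomyosin Tpm2 with 34.4 ± 3.09, smoothelin, Smtn, with 32.8 ± 1.24 and desmin, Des, with 2.53 ± 0.0764 (SD, n = 3 each). Myl9, a myosin light chain of smooth muscle, was low at 0.300 ± 0.172 FPKM. Tagln, a marker of contractile smooth muscle, had 4 reads and the smooth muscle myosin Myh11 had 32. None of 6 skeletal muscle genes was expressed, and the only read was for Ckm.

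Markers of other testis cells were mostly near silent. Of 15 Sertoli cell genes 2 were expressed (13.3%), the secreted chaperone clusterin, Clu, with 40.1, 47.2 and 39.6 FPKM and the activin subunit Inhbb with 1.68 ± 0.0244. Wt1, also a factor of Sertoli cells, was expressed but counted in the Leydig identity list, so this share depends on where shared markers were placed. Sox8, Gdnf and Trf were low at 0.499, 0.404 and 0.252 FPKM. The defining factors Sox9 and Dmrt1, the receptor Fshr and the junction protein Cldn11 had no read. No germ cell gene of 12 was expressed (1 at a threshold of 0.5 FPKM or 1 CPM), and the highest, the spermatogonial factor Zbtb16, had 0.867, 1.05 and 0.885 FPKM, followed by the meiotic protein Sycp3 with 0.347 ± 0.0506 (SD, n = 3). Nanos3, Prm1 and Ddx4 had 6, 2 and 8 reads.

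Among 8 granulosa cell genes 2 were expressed (25.0%), Inha and the activin-binding protein follistatin, Fst, with 2.44, 2.04 and 2.47 FPKM. Amhr2, the receptor for anti-Müllerian hormone, had 0.317 ± 0.228 FPKM and Hsd17b1, an estrogen-making enzyme, 0.181 ± 0.0297 (SD, n = 3 each). The ovarian factor Foxl2 had no read, and Nr5a2 had 2.

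Blood, vessel and epithelial markers were mostly near silent too. Of 10 macrophage genes 2 were expressed, the endotoxin co-receptor Cd14 with 8.13, 5.53 and 6.36 FPKM and the lysosomal Cd68 with 1.47, 1.73 and 2.04. Lyz2, the lysozyme of myeloid cells, had 0.779, 0.600 and 1.75 FPKM, the widest relative spread among the named genes above 1 FPKM. Csf1r had 0.179 ± 0.118 FPKM (SD, n = 3) and Mrc1 15 reads, while the complement gene C1qa and the integrin Itgam had none. None of 8 endothelial genes was expressed: Pecam1 had 45 reads, Vwf 27, Tek 4 and Tie1 4, and Kdr and Cdh5 had none.

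Of 11 epithelial genes 1 was expressed (9.09%; 2 at a threshold of 0.5 FPKM or 1 CPM, or without replicate 3), the basal keratin Krt14 with 4.28, 4.94 and 4.19 FPKM. Krt19 straddled the threshold with 1.29, 1.38 and 0.967 FPKM. The simple-epithelium keratins Krt18 and Krt8 were low at 0.637 ± 0.307 and 0.272 ± 0.142 FPKM (SD, n = 3 each). The tight junction gene Ocln had 15 reads, and Epcam, the epithelial adhesion molecule, had 1.

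The cells carried transcripts of the Y chromosome, as a male line can. Of 8 Y-linked genes 3 were expressed (37.5%, beside 45.8% of all protein-coding genes). The RNA helicase Ddx3y had 97.6, 92.5 and 95.8 FPKM. The histone demethylases Uty and Kdm5d had 21.6 ± 0.251 and 17.1 ± 1.00 (SD, n = 3 each). Their neighbours Eif2s3y and Usp9y had 5 and 10 reads in all, and Sry, Zfy1 and Zfy2 had none.

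**Figure D3:**
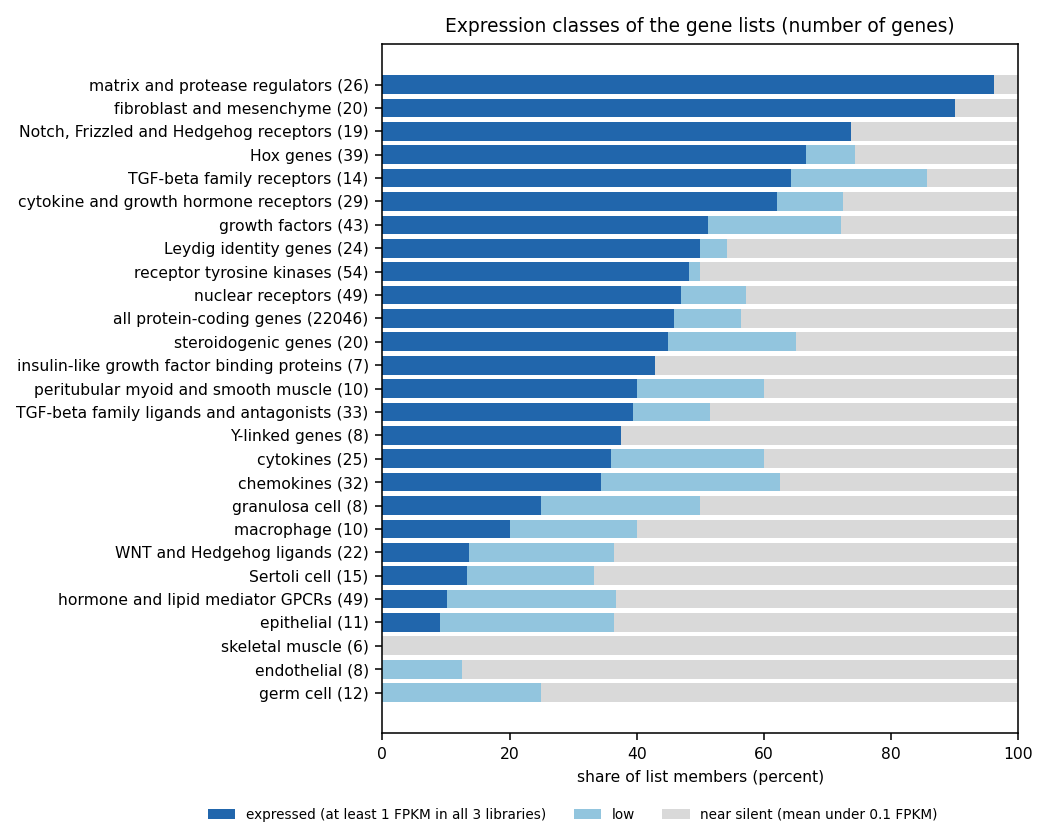
Share of the members of each gene list (percent, number of genes in brackets) that were expressed, low or near silent in the vehicle libraries, with all protein-coding genes as background. Matrix regulators (96.2%) and fibroblast genes (90.0%) stand highest, and no member of the skeletal muscle, endothelial and germ cell lists was expressed.

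Hox genes, homeobox factors that mark position along the body axis, were expressed as a block from the middle of the clusters. Of 39 Hox genes 26 were expressed (66.7%, beside 45.8% of all protein-coding genes). In paralog groups 1 to 5 these were 10 of 15, with a median of 3.01 FPKM over the group. In groups 6 to 10 they were 14 of 15, with a median of 9.56. In groups 11 to 13 they were 2 of 9, with a median of 0.0434. Hoxc8 was highest with 27.7, 30.5 and 26.1 FPKM, followed by Hoxc9 with 17.8, 19.6 and 16.3. The 3 values of Hoxc8 lay above those of every other Hox gene. Hoxa9 had 14.7, 13.7 and 15.1 FPKM, Hoxb9 14.1 ± 0.275 and Hoxc10 10.8 ± 1.17 (SD, n = 3 each).

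The clusters differed in how many members were on. Cluster A had 9 of 11 genes expressed, B 8 of 10, C 7 of 9 and D 2 of 9, which were Hoxd8 and Hoxd9 with 6.11 and 7.29 FPKM. The series in cluster C was broken: Hoxc10 was expressed, Hoxc11 had no read and Hoxc12 had 2, yet Hoxc13, the last of the cluster, had 7.52, 6.23 and 6.72 FPKM. Hoxa11 was the other expressed member of the posterior groups, at 5.03 FPKM. Hoxd13, Hoxd11 and Hoxd10 had 9, 9 and 5 reads. Genes named beyond the 5 highest were picked after their values were seen.

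**Figure D4:**
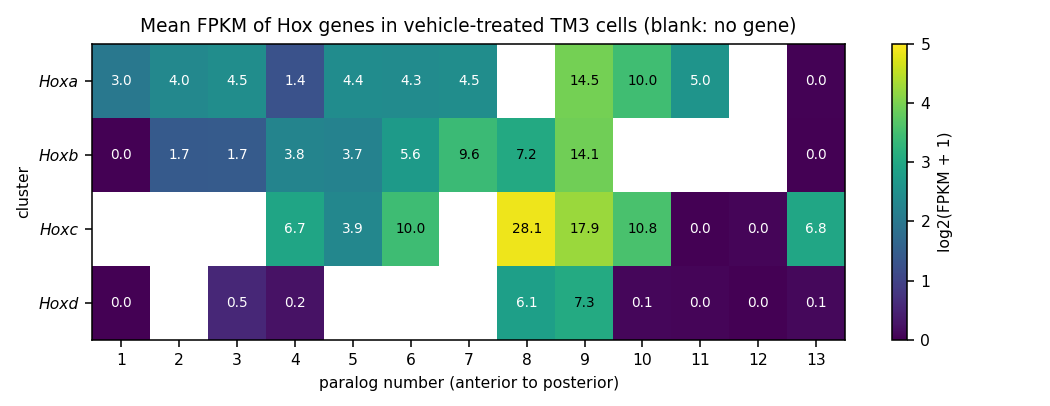
Mean FPKM of each Hox gene over 3 vehicle libraries (number in the square; colour shows log2(FPKM + 1)), by cluster and paralog number. The brightest squares run through paralogs 8 to 10, cluster D is dark outside Hoxd8 and Hoxd9, and Hoxc13 is separated from Hoxc10 by dark squares.

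Receptors were examined in 6 lists that hold 214 genes, of which 95 were expressed (44.4%, beside 45.8% of all protein-coding genes). Receptor tyrosine kinases, which bind growth factors outside the cell and phosphorylate tyrosines within it, had 26 of 54 members expressed (48.1%). After Pdgfra came Axl, the receptor for Gas6, with 89.3, 85.9 and 85.2 FPKM. The Wnt co-receptor Ptk7 had 72.3, 73.8 and 72.8 FPKM, and its 3 values lay between those of Axl and of the epidermal growth factor receptor Egfr. Egfr had 61.9, 58.6 and 61.5 FPKM, and the collagen receptor Ddr1 overlapped it with 63.3, 58.6 and 57.8.

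Within the ErbB family, to which Egfr belongs, levels fell off steeply. Erbb2, which has no known ligand, had 14.2, 12.1 and 15.2 FPKM, and the kinase-impaired Erbb3 had 1.22, 1.19 and 1.28. Erbb4 (chr1:68032186-69108059, minus strand) had no read, against a limit of 0.00534 FPKM for 3 reads over the group. Kit, the stem cell factor receptor, Kdr, the main endothelial receptor for Vegfa, and the neurotrophin receptors Ntrk2 and Ntrk3 had none either.

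Receptors for the TGF-beta family, serine and threonine kinases that signal to Smad proteins, had 9 of 14 members expressed (64.3%). The co-receptor Tgfbr3 led with 38.1, 34.9 and 36.8 FPKM and overlapped the bone morphogenetic protein receptor Bmpr1a with 36.2, 29.5 and 35.7. The activin receptor Acvr1b had 18.9, 17.5 and 19.9 FPKM. Its relative Acvr1 had 13.2 ± 0.472 FPKM (SD, n = 3), and the TGF-beta receptor Tgfbr2 overlapped it with 14.1, 11.7 and 13.2. Bmpr1b and Acvr1c had no read.

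Receptors for cytokines and growth hormone had 18 of 29 members expressed (62.1%). The tumour necrosis factor receptor Tnfrsf1a had 63.7, 69.5 and 66.9 FPKM. Il6st (gp130), the shared signal chain of the interleukin 6 family, had 64.9, 60.8 and 61.6, and Tnfrsf1b, the second receptor for tumour necrosis factor, 64.4, 55.1 and 59.5, so that these 3 genes could not be ordered within their spread. The growth hormone receptor Ghr had 33.2 ± 1.11 FPKM and the interferon receptor Ifnar1 28.9 ± 0.749 (SD, n = 3 each).

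G-protein coupled receptors for hormones and lipid mediators were the sparsest receptor list, with 5 of 49 expressed (10.2%) and 20 without a read. The count was 10 at a threshold of 0.5 FPKM and 12 at 1 CPM. The thrombin receptor F2r (chr13:95601803-95618487, minus strand) held most of the list's 296 ± 10.8 FPKM, with 276, 267 and 258. The lysophosphatidic acid receptors Lpar1 and Lpar2 had 9.83 ± 0.462 and 5.86 ± 0.345 FPKM and the sphingosine phosphate receptor S1pr2 4.67 ± 0.469 (SD, n = 3 each). The vasopressin receptor Avpr1a lay just outside the threshold with 1.48, 1.41 and 0.888 FPKM. The gonadotropin receptors Lhcgr and Fshr, the thyrotropin receptor Tshr, the corticotropin receptor Mc2r and the relaxin family receptors Rxfp1 and Rxfp2 had no read.

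Nuclear receptors, transcription factors switched by hormones and lipids, had 23 of 49 members expressed (46.9%). The clock repressor Nr1d1 was highest but varied, with 51.3, 73.2 and 59.2 FPKM and replicate 2 on top. The thyroid hormone receptor Thra had 49.0, 53.1 and 51.2 FPKM and the glucocorticoid receptor Nr3c1 45.3, 42.6 and 44.4. The retinoic acid receptors Rarg and Rara had 32.3 ± 1.21 and 31.1 ± 4.07 FPKM (SD, n = 3 each), which overlapped. For sex steroids, the estrogen receptor Esr1 had 6.36 FPKM and Esr2 2 reads, while the progesterone receptor Pgr and the mineralocorticoid receptor Nr3c2 had none.

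Receptors of the Notch, Wnt and Hedgehog pathways, which cells use to signal to their neighbours, had 14 of 19 members expressed (73.7%). The Wnt receptors Fzd7 and Fzd2 had 54.7 ± 2.08 and 31.1 ± 3.34 FPKM and the Wnt co-receptor Lrp5 28.3 ± 0.528. Notch3 had 46.6 ± 2.81 FPKM, and Smo, which passes on the Hedgehog signal, 25.1 ± 1.55 (SD, n = 3 each). Fzd3 and Fzd10 had no read.

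Secreted factors were examined in 7 lists with 188 genes, of which 86 were expressed (45.7%, beside 45.8%). Growth factors had 22 of 43 members expressed (51.2%). Gas6, the ligand of Axl, was highest with 215, 237 and 215 FPKM. The angiogenic factor Vegfa had 79.3, 92.9 and 82.9 FPKM and the heparin-binding factor pleiotrophin, Ptn, 51.8, 51.2 and 50.8. Vegfb had 33.4 ± 0.359 FPKM and Angptl4, an inhibitor of lipoprotein lipase, 24.8 ± 2.65 (SD, n = 3 each). Igf2 had no read, and Hgf, the ligand of the expressed kinase Met, had 6, while Met itself had 51.2 FPKM.

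In the TGF-beta family 13 of 33 ligands and antagonists were expressed (39.4%). The follistatin-like protein Fstl1 was highest with 76.3, 71.6 and 72.9 FPKM. The BMP antagonist Grem1 had 42.5, 30.5 and 41.0 FPKM, with replicate 2 the lowest. Tgfb3 had 35.5 ± 2.36 FPKM, Bmp4 21.0 ± 1.49 and Tgfb2 20.8 ± 1.95 (SD, n = 3 each), and the last pair overlapped. Bmp2, Bmp6, Bmp7 and the antagonist Nog had no read.

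Chemokines, small proteins that attract leukocytes, had 11 of 32 members expressed (34.4%). Cxcl12 (chr6:117168535-117181367, plus strand), a stromal chemokine, stood apart with 354, 328 and 364 FPKM. The neutrophil attractants Cxcl5 and Cxcl1 had 59.9, 44.2 and 56.2 and 44.7, 52.3 and 47.2 FPKM and overlapped. Cx3cl1 had 22.5 ± 1.41 FPKM and the monocyte attractant Ccl2 22.3 ± 3.13 (SD, n = 3 each). Ccl3, Ccl4 and Cxcl14 had no read.

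Of 25 other cytokines 9 were expressed (36.0%). Mif, a macrophage inhibitory factor made by many cells, had 645, 779 and 754 FPKM, and Csf1, the growth factor of macrophages, 54.1, 49.6 and 52.3. The alarmin Il33 had 24.7 ± 0.738 FPKM, Clcf1 of the interleukin 6 family 7.96 ± 0.780 and osteopontin, Spp1, 5.55 ± 0.225 (SD, n = 3 each). Tnf and Ifng had no read, and Il6 was low at 0.180 FPKM.

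The insulin-like growth factor binding proteins, carriers that set how much free factor reaches cells, were either abundant or near silent. Igfbp4 (chr11:99041244-99054392, plus strand) had 565, 645 and 600 FPKM, Igfbp7 298, 319 and 278, and Igfbp6 68.4, 72.1 and 63.1. The 3 genes did not overlap. Igfbp3 and Igfbp5 had 2 and 1 reads, and Igfbp1 and Igfbp2 had none, so no member lay in the low class.

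Wnt and Hedgehog ligands, whose receptors were widely expressed, were few, with 3 of 22 expressed (13.6%), or 6 at a threshold of 1 CPM. Wnt4, a factor of the early gonad, had 18.5, 15.7 and 17.8 FPKM, Wnt5a 7.80 ± 0.449 and Wnt9a 4.61 ± 0.692. Wnt10b and Wnt11 were low at 0.724 ± 0.105 and 0.536 ± 0.202 FPKM (SD, n = 3 each). Shh and Ihh had no read, and Dhh, the Hedgehog ligand of Sertoli cells, had 1.

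Matrix proteins and the proteases and inhibitors that remodel them were the most complete list, with 25 of 26 members expressed (96.2%), and they held 6.57 ± 0.154% of protein-coding reads (SD, n = 3). Beside Fn1, Col1a1 and Sparc, the collagen chain Col6a1 had 666, 728 and 666 FPKM and the metalloprotease inhibitor Timp2 414, 450 and 421. The only member not expressed was Timp4, an inhibitor of the same family, with 4 reads.

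**Figure D5:**
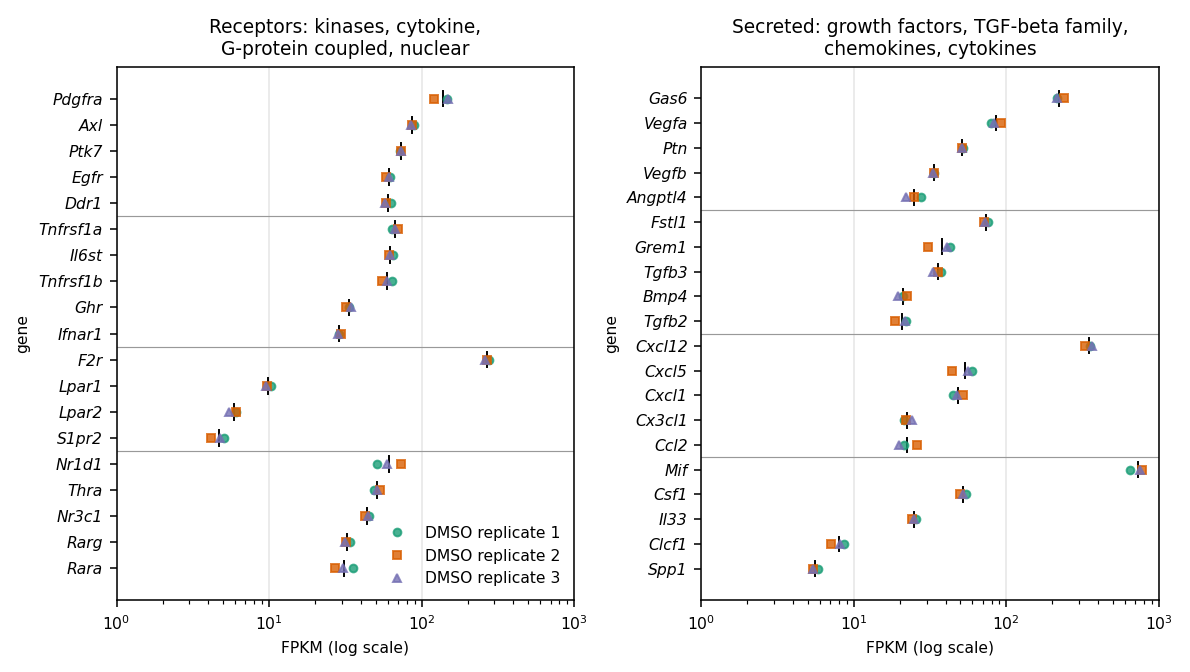
FPKM (log scale) in each vehicle library of the highest members (up to 5) of 4 receptor lists (left, with lines between kinases, cytokine, G-protein coupled and nuclear receptors) and of 4 lists of secreted factors (right, with lines between growth factors, TGF-beta family, chemokines and cytokines). The black bar is the mean of 3, and F2r, Gas6, Cxcl12 and Mif stand clear of the next member of their lists in all 3 libraries.

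The 3 libraries resembled each other closely but were not interchangeable. The biological coefficient of variation, the spread between libraries beyond counting error as estimated by edgeR over 13202 genes, was 7.97%. It fell to 5.94% without replicate 2. Chi-square per degree of freedom over genes was 8.56 between replicates 1 and 2, 3.93 between 1 and 3 and 6.06 between 2 and 3. All pairs thus differed by more than sampling noise. Both measures included genes that are not protein-coding. Expressed protein-coding genes had a median coefficient of variation of 6.64%, beside a separate median of 4.09% for counting alone. The observed median was 8.14% for genes of 1 to 10 FPKM, 5.24% for 10 to 100, 7.29% for 100 to 1000 and 7.88% above 1000. Above 1000 FPKM counting alone gives a median of 0.412%.

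Few well-measured genes set a library apart. Among 7054 genes with a mean of at least 20 CPM, 16 (0.227%) lay at least 1.5-fold above or below both other libraries: 0 above and 4 below in replicate 1, 6 and 2 in replicate 2, and 2 and 2 in replicate 3. At 2-fold there were 2 such genes, and at a mean of at least 1 CPM 571 of 11302 (5.05%). In replicate 2 these included the endoplasmic reticulum chaperone Hspa5, with 929, 1936 and 1211 CPM in replicates 1, 2 and 3. Manf, a protein induced by stress of the same organelle, had 37.3, 92.8 and 45.9 CPM, and the stress gene Gadd45g 24.9, 50.9 and 29.9. The glycolytic enzyme Gapdh had 32.2, 80.8 and 45.8 CPM and the ribosomal protein Rpl7a 152, 234 and 143. Below in replicate 2 were Sumo2, which modifies proteins, with 60.7, 30.1 and 77.6 CPM and the zinc finger gene Zfp970, at 0.652 of the lower of the other libraries. An annotated ribosomal RNA gene had 3369, 10127 and 4997 reads, also highest in replicate 2, and its part in these differences was not tested.

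In replicate 3 the ribosomal protein genes Rps27 and Rpl39 were above the others, with 176, 214 and 328 CPM and 240, 287 and 436 CPM, and Rps27a was below with 496, 627 and 324. In replicate 1 the splicing protein gene Snrpe had 12.1, 20.9 and 29.1 CPM, the mitochondrial leucyl-tRNA synthetase Lars2 100.2, 237 and 168, the ATP synthase subunit Atp5mpl 15.1, 23.9 and 24.4 and the mitochondrial ribosomal gene Mrpl52 14.9, 22.4 and 22.8. Many of these genes have near-identical processed copies in the mouse genome, and how such reads were counted is not known here. The same limit applies to Gapdh, which at 13.3 ± 6.37 FPKM lay far under Actb at 514 ± 14.2 (SD, n = 3 each), and to the ribosomal protein genes as a whole.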

How the data were processed

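Poly(A) RNA of 3 vehicle-treated TM3 samples was analysed, grouped by the labels. The submitters' processing notes name build mm10, featureCounts 1.5.0-p3, DESeq2 1.20.0, fastp and HISAT2 2.0.5, without roles; the sources used here do not give the annotation, strand setting or treatment of multi-mapped reads. The deposited count table holds whole-number reads per gene. The deposited FPKM table equals counts divided by gene length and 1 library size per column, 93.9% to 97.5% of the column total; the sources used here do not give the basis of that size. Column totals of 15005737 to 16171030 reads set the precision, and limits of 3 counts cover counting error only.

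Gene class, summed levels, means and SDs were computed from the deposited FPKM in Python 3.11.15 (pandas 2.3.3, numpy 2.4.6). CPM used TMM factors, and the spread between libraries was estimated by edgeR 4.0.16 in R 4.3.3 with an intercept alone, after filterByExpr (minimum count 10, minimum total 15). The estimate was tested on simulated data. Library pairs were compared by chi-square per degree of freedom over genes, with no p-value. The TMM factors, the spread estimate and the chi-square values took all genes that passed their count filters, not only protein-coding ones. No groups were compared, and the drug-treated columns were not used. Where a symbol belonged to more than 1 gene identifier (25 symbols), the one with more reads was used. The 27 symbols turned into dates by a spreadsheet were replaced by the gene identifier, so these genes could not be found by symbol.

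The members and the 26 gene lists were chosen with earlier results of these data known. Named are the 15 genes of highest mean FPKM, the 5 highest of each list, all members of the 2 Leydig lists and the genes furthest apart in each library at a mean of at least 20 CPM; others are named to state where a gene of a family was not detected, or are said to have been picked after seeing values. A few genes that this rule takes are not reported here. Alternatives were other thresholds (0.5 FPKM, 1 TPM, 1 CPM), other scaling, no filter, and leaving out each replicate; FPKM with TMM sizes was chosen after seeing the data.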

Additional observations from a re-analysis of the deposited data

Results flagged for a closer look

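Genes that the deposited tables do not class as protein-coding lay outside the expression classes, shares and lists above. Their reads made up 3.3% of all counts (3.11%, 3.51% and 3.27% in DMSO replicates 1, 2 and 3), above the limit that a count of 0 allows. These reads did enter the TMM factors, the biological coefficient of variation and the chi-square values between libraries. The nuclear noncoding RNA Malat1 was highest, with 38893, 51460 and 43352 reads. Processed pseudogenes held 1.45 ± 0.0822% of counts (SD, n = 3), among them Rpsa-ps10, a copy of a ribosomal protein gene, with 20341, 25216 and 21649 reads.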

How the results depend on the processing

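The 10102 expressed genes became 10762 at 0.5 FPKM, 11149 at 1 TPM, 11031 at 1 CPM and 10156 to 10212 without 1 replicate, and the genes without reads 7324 to 7404 without 1 replicate. The share of the 100 genes with the most reads was 23.2% with all genes as denominator and 23.6% to 24.2% without 1 replicate. The coefficient of variation between libraries was 5.94% to 9.52% without 1 replicate. Genes with a library apart numbered 2 at a fold of 2, and 571 of 11302 (5.05%) at a mean of at least 1 CPM, where counting error is larger. Expressed list members numbered 242 of 558 (43.4%, beside 45.8% of all protein-coding genes). They became 261 at 0.5 FPKM, 269 at 1 CPM and 243 to 247 without 1 replicate. At 0.5 FPKM or 1 CPM the germ cell list had 1 expressed member and the epithelial list 2, also 2 without replicate 3 (1 to 2 without 1 replicate); the G-protein coupled receptors had 10 at 0.5 FPKM and 12 at 1 CPM, and the WNT and Hedgehog ligands 6 at 1 CPM. With TMM library sizes the FPKM of 29 named genes moved by more than 1 SD and that of 142 did not; named genes above 1 FPKM changed by 3.74% to 4.01%, all downwards. Leaving out 1 replicate moved them by at most 33.9% (Lyz2). The planned comparison of promoter CG content was not run, for want of matched windows. No paired analysis was possible because only vehicle samples were described and no result compares groups. Depth limits statements on genes at a few reads.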

Other observations

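Transcription factors, as classed by a column of the deposited tables, were expressed in 750 of 1451 cases (51.7%, beside 45.8% of all protein-coding genes). The highest, picked after their values were seen, were the stress-response factors Ddit3 with 202, 274 and 239 FPKM and Atf4 with 144, 161 and 155 in replicates 1, 2 and 3. The cold-shock protein Ybx1 had 137 ± 4.32 FPKM, the chromatin factor Mta1 129 ± 6.35 and Cebpb, a factor of inflammation and fat cell differentiation, 107 ± 7.11 (SD, n = 3 each). By family, 38 of 44 ZBTB genes (86.4%), 37 of 100 bHLH genes (37.0%) and 59 of 229 homeobox genes (25.8%) were expressed.

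Chemosensory receptors made up a large share of the silent genome. No read was counted for 1072 of 1135 olfactory receptor genes and for 311 of 331 vomeronasal receptor genes, together 19.9% of all protein-coding genes without a read, and none of either family was expressed. All 57 keratin-associated protein genes were without a read. Of 394 Zfp zinc finger genes 264 were expressed, beside 10102 of all 22046 protein-coding genes. By chromosome, the expressed share ran from 36.0% on chromosome 7 to 55.9% on chromosome 8 among autosomes, was 32.3% on X, and was 4 of 183 genes on Y.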
